A study of Mus musculus with 38 samples.

Results

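The genes described here are Pou5f1, Sox2, Sall4, Utf1 and Lin28a, 5 of the 23475 genes with usable rows in the bulk table, chosen by name as core pluripotency genes and followed in every bulk library and single-cell plate. The cells were E14 mouse embryonic stem cells (mESC), an established line, grown without feeders in 2i/L, a medium with a MEK inhibitor, a GSK3 inhibitor and LIF. They were moved to N2B27, the same basal medium without the inhibitors and LIF, with 0.25 µM all-trans retinoic acid (RA), so that every treated sample differs from the mESC both by RA and by the loss of 2i/L. No library from cells moved to N2B27 for the same times without RA was analysed here. Bulk libraries came from 2 mESC samples, from whole populations after 6, 12, 24, 36, 48, 60, 72, 84 and 96 h (1 each), from cells sorted at 96 h as ectoderm-like (CD24+/PDGFRA-) and XEN-like (extraembryonic endoderm-like, PDGFRA+/CD24-; 2 libraries of each), from PDGFRA- cells in 4 CD24 quartiles at 48 h and 3 CD24 terciles at 72 h, from PDGFRA+/CD24- cells at 72 h, and from an ectoderm-like culture at passage 5 and a XEN-like culture of 3 weeks. Both cultures were started from sorted cells and kept in N2B27 with EGF and FGF2. Single cells were measured by SCRB-seq, which counts tagged 3′ ends (UMIs) in 384-well plates, from 0 to 96 h, and by full-length SMART-seq2 at 0, 12, 24 and 48 h.

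Pou5f1 (Oct4) and Sox2 are transcription factors that bind DNA side by side at octamer and Sox elements and together hold embryonic stem cells in the pluripotent state. Sox2 is in addition a factor of neural progenitors, and Oct4 is also present in early primitive endoderm of the embryo. Utf1 is a chromatin-associated protein whose enhancer carries an Oct4-Sox2 element. Sall4 is a zinc-finger factor that recruits the NuRD deacetylase complex, and Lin28a is an RNA-binding protein that blocks maturation of the let-7 microRNAs and is known from early embryonic and progenitor cells.

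The 5 genes lie on 5 chromosomes of GRCm38, the genome build of the study, in the GENCODE M21 annotation. Pou5f1 is at chr17:35506018-35510772 (+ strand, 5 exons in its longest consensus-coding transcript), Sox2 at chr3:34650405-34652461 (+, 1 exon), Sall4 at chr2:168748332-168767943 (-, 4 exons), Utf1 at chr7:139943789-139945112 (+, 2 exons) and Lin28a at chr4:134003330-134018841 (-, 4 exons). Sox2 lies inside the long non-coding gene Sox2ot, on the same strand. Antisense or opposite-strand transcripts overlap Pou5f1 (Gm19553), Sall4 (Gm14261) and Lin28a (Gm13061), and Pou5f1 has near-identical processed copies in the mouse genome, so reads of these pairs may have been assigned to either gene.

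Promoters of 4 of the 5 members were found in the RefSeq promoter table (GRCm38.p6). Each is printed from 250 bases before to 50 bases after its RefSeq start, 5′ to 3′ on the gene's own strand. They are shown because Pou5f1 and Utf1 moved together over the libraries whereas Sox2 and Lin28a did not follow them closely. Capitals mark matches, on either strand, to 4 motifs: the octamer ATGCAAAT, the Sox site ACAAAG, the GC box GGGCGG and the nuclear receptor half-site AGGTCA, the letters that retinoic acid and related receptors bind.
Pou5f1 chr17:35505782-35506081 (+): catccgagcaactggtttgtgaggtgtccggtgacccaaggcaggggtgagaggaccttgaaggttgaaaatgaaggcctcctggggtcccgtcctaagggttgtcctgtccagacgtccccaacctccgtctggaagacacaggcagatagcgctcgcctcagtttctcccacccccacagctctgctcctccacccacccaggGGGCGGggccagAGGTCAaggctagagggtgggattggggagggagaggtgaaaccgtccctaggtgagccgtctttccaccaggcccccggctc
Sox2 chr3:34649745-34650044 (+): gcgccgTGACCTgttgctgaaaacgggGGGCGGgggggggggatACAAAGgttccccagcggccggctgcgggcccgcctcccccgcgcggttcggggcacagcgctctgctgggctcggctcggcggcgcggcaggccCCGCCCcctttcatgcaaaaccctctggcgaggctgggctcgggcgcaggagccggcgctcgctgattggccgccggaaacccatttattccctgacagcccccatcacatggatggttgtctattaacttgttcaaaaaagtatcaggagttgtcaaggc
Utf1 chr7:139943606-139943905 (+): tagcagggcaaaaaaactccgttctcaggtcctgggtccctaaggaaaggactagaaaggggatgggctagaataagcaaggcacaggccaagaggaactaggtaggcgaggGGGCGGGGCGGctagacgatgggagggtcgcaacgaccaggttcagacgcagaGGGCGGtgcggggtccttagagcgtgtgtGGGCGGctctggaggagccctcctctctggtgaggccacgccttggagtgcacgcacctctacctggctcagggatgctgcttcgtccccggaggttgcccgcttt
Lin28a chr4:134018767-134019066 (-): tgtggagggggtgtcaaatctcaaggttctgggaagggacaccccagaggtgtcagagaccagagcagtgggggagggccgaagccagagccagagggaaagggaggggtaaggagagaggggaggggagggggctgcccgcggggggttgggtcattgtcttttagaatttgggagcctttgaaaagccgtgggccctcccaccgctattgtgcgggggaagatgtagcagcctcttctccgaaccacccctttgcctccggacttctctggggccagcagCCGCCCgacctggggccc
The Pou5f1 window held 1 GC box, at positions -45 to -40, and 1 half-site, at -33 to -28. The Sox2 window held 2 GC boxes, 1 half-site and 1 Sox site, the Utf1 window 4 GC boxes, of which 2 share a base, and the Lin28a window 1 GC box. The Sox2 window ends at 34650044, before the GENCODE gene start of 34650405 given above. The 2 annotations thus differ on that start, and the Sox2 window holds none of the gene as GENCODE places it. None of the 4 windows held the octamer. Of 32817 promoters of this length, 35.6% held the GC box, 16.3% the half-site, 18.7% the Sox site and 1.74% the octamer. The shared letters are therefore common ones, and binding was not measured.

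Total counts of the bulk libraries ran from 1063809 to 2459424 UMIs, and values are given as CPM, UMIs scaled to a common library size of 1e6. The labelled cell types were checked against marker genes. All 11 XEN markers (8 of which were also higher in sorted ectoderm-like cells than in mESC), among them Gata4, Gata6, Sox17 and Dab2, were higher in sorted XEN-like than in sorted ectoderm-like cells, and all 11 ectoderm markers, among them Pax6, Sox1 and Hoxb2, were lower. Trophectoderm markers summed to at most 28.7 CPM in any library, and of 6 mesoderm markers only Twist1 had counts to be tested. Sorted ectoderm-like library 2 stood apart from library 1 with 1779 CPM of summed XEN markers against 485 CPM, and sorted XEN-like library 1 had 376 CPM of summed naive pluripotency regulators against 191 CPM in library 2. Members' calls that were lost without 1 library are named; the other gene lists were fitted with all 6 libraries only. The labels do not say whether the 2 libraries of a group came from separate cultures, so p-values measure the spread between these libraries.

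In cells sorted at 96 h, Pou5f1 and Utf1 were lower than in mESC in both lineages, Sox2 was nearly gone from XEN-like cells but held at about 50 CPM in ectoderm-like cells, Lin28a was higher in both, and Sall4 passed the test in neither. In edgeR's quasi-likelihood test with Benjamini-Hochberg adjustment over 8945 genes, 3 of the 5 members were lower and 1 higher in ectoderm-like cells against mESC, where 9.27% of all genes were called lower and 9.82% higher. The same counts, 3 lower and 1 higher, were found in XEN-like cells, against 10.5% and 12.3% of all genes. The members' median log2 fold change was -1.36 and -3.05, beside 0.05 and -0.06 for all genes tested. With library totals in place of TMM scaling the median of all genes shifted to 0.36 and 0.15, and the split of calls over all genes changed from 878 higher and 829 lower to 1372 and 586 in ectoderm-like cells, and from 1103 and 939 to 1336 and 702 in XEN-like cells.

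Pou5f1 had 265 and 292 CPM in the 2 mESC libraries, 3.33 and 0.646 CPM in sorted ectoderm-like cells (6 UMIs and 1 UMI), and 60.4 and 16.4 CPM in sorted XEN-like cells. The 3 groups did not overlap: both XEN-like libraries lay above both ectoderm-like libraries and below both mESC libraries. Pou5f1 fell by 7.34 ± 0.64 (SE) on the log2 scale in ectoderm-like cells (edgeR adjusted p = 2.79e-05) and by 3.05 ± 0.46 in XEN-like cells (edgeR adjusted p = 0.00074). The fall in ectoderm-like cells was -8.82 without ectoderm-like library 1 and -6.72 without library 2. The difference between the lineages was itself past the threshold, with Pou5f1 higher in XEN-like cells by 4.29 ± 0.66 on the log2 scale (edgeR adjusted p = 0.00254). XEN-like library 1, the one with more Pou5f1, was also the one with more naive regulators, and without it the log2 change against mESC was -4.14 and the log2 difference between the lineages 3.20 (edgeR adjusted p = 0.0199). The part of residual pluripotent cells in these values was not tested, and fewer expressing cells and less RNA per cell cannot be told apart in bulk libraries.

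Sox2 had 85.7 and 131 CPM in mESC, 55 and 50.4 CPM in sorted ectoderm-like cells, and 1.52 and 3.65 CPM in sorted XEN-like cells (3 and 4 UMIs). No group overlapped another, and the ectoderm-like libraries were close to each other. Sox2 fell by 5.73 ± 0.50 on the log2 scale in XEN-like cells against mESC (edgeR adjusted p = 3.75e-05), and was lower by a log2 value of -4.36 ± 0.51 in XEN-like than in ectoderm-like cells (edgeR adjusted p = 0.00086). Without 1 library the value between the lineages ran from -3.58 (without XEN-like library 1) to -5.05 (without XEN-like library 2), and stayed past the threshold. The fall in ectoderm-like cells against mESC was smaller, -1.36 ± 0.34 (edgeR adjusted p = 0.0166), and this call did not hold with library totals (adjusted p = 0.0515), without mESC library 2 (0.098), or without ectoderm-like library 1 (0.103) or 2 (0.106).

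Utf1 differed between the 2 mESC libraries themselves, at 63 and 11.8 CPM. It had 1.67 CPM in sorted ectoderm-like library 1 and no UMI in library 2, where a count of 0 allows up to 1.94 CPM, and 4.57 and 1.82 CPM in sorted XEN-like cells. All 4 sorted libraries lay below both mESC libraries. Utf1 fell by 5.57 ± 0.98 on the log2 scale in ectoderm-like cells (edgeR adjusted p = 0.0023) and by 3.61 ± 0.81 in XEN-like cells (edgeR adjusted p = 0.00749). The first ranged from -3.99 without mESC library 1 to -9.19 without ectoderm-like library 1, which leaves only the library with no UMI. The second call rested on mESC library 1, without which the log2 change was -2.03 (edgeR adjusted p = 0.103), and between the lineages the log2 difference was 1.97 ± 1.34 (edgeR adjusted p = 0.388).

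Sall4 stayed within the range of the spread: 112 and 84.9 CPM in mESC, 129 and 73.7 CPM in sorted ectoderm-like cells, and 193 and 111 CPM in sorted XEN-like cells. The groups overlapped. Its log2 fold change was -0.27 ± 0.32 in ectoderm-like cells (edgeR adjusted p = 0.609) and 0.42 ± 0.32 in XEN-like cells (edgeR adjusted p = 0.383), and 0.69 ± 0.32 between the lineages (edgeR adjusted p = 0.198). The sign in ectoderm-like cells turned, without a call, to 0.05 with library totals and to 0.03 without ectoderm-like library 2.

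Lin28a was the one member that rose in both lineages. It had 32.4 and 13.9 CPM in mESC, 166 and 155 CPM in sorted ectoderm-like cells, and 181 and 143 CPM in sorted XEN-like cells. All 4 sorted libraries lay above both mESC libraries, and the lineages overlapped. The log2 fold change was 2.49 ± 0.35 in ectoderm-like cells (edgeR adjusted p = 0.000667) and 2.61 ± 0.36 in XEN-like cells (edgeR adjusted p = 0.000409), while the lineages differed by a log2 value of 0.12 ± 0.33 (edgeR adjusted p = 0.861). Of the 5 members, 1 was called higher and 1 lower in XEN-like against ectoderm-like cells, Pou5f1 and Sox2, where 6.98% and 5.71% of all genes were.

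**Figure D1:**
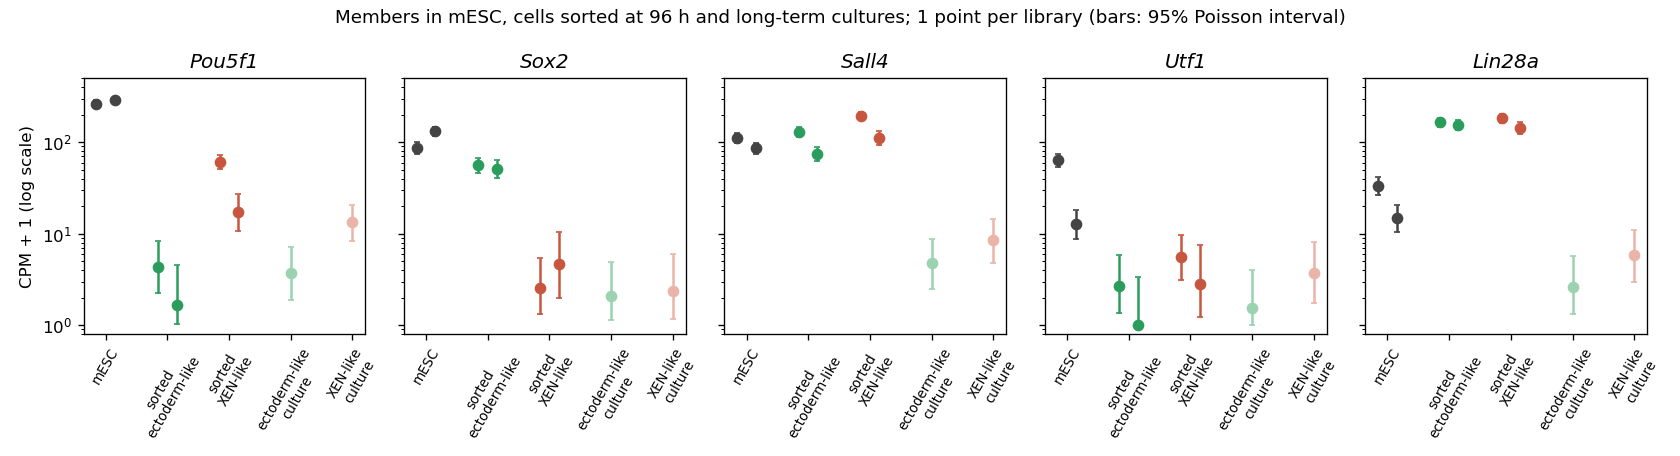
CPM + 1 on a log axis in mESC, sorted ectoderm-like, sorted XEN-like and long-term cultured cells, with 1 point per library and bars for the 95% Poisson counting interval. Sox2 sat near 50 CPM in the sorted ectoderm-like libraries and under 4 CPM in the sorted XEN-like ones, Pou5f1 showed the opposite order, and all 5 members were at 12.4 CPM or less in both cultures.

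Over the time course, Pou5f1 and Utf1 were at or above the level of mESC library 1 at 6 and 12 h and then came down, most steeply between 36 and 48 h, Sox2 was already low at 36 h, and Lin28a climbed. There was 1 library per time point, so the intervals cover counting error only and no test was made. Pou5f1 read 265 CPM at 0 h, 306 at 6 h, 274 at 12 h, 233 at 24 h, 172 at 36 h, 56.5 at 48 h, 39.6 at 60 h, 28.3 at 72 h, 25.4 at 84 h and 29.2 at 96 h. The level at 24 h was 0.881 (0.779 to 0.995) of that at 0 h, and the step from 24 to 36 h was a ratio of 0.740 (0.636 to 0.859). The steepest step was from 36 to 48 h, a ratio of 0.328 (95% interval 0.266 to 0.403), and the level at 96 h was 0.110 (0.0826 to 0.145) of that at 0 h. From 72 to 96 h the ratio was 1.03 (0.695 to 1.53).

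Utf1 read 63 CPM at 0 h, 98.8 at 6 h, 147 at 12 h, 108 at 24 h, 65.4 at 36 h, 19.1 at 48 h, 7.81 at 60 h, 4.90 at 72 h, 8.82 at 84 h and 12.3 at 96 h. It peaked at 12 h at 2.34 times (1.92 to 2.86) the 0 h level and came down from 24 to 36 h by a ratio of 0.605 (0.475 to 0.765) and from 36 to 48 h by a ratio of 0.292 (0.203 to 0.415), the same step of the course as for Pou5f1. At 96 h it was 0.195 (0.121 to 0.302) of mESC library 1, but 1.05 (0.578 to 1.88) of mESC library 2, so the loss of Utf1 over 96 h depends on the mESC library it is set against.

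Sox2 read 85.7 CPM at 0 h, 89.5 at 6 h, 63 at 12 h, 45.8 at 24 h, 24.2 at 36 h, 44.7 at 48 h, 21 at 60 h, 32.1 at 72 h, 39.4 at 84 h and 33.8 at 96 h. The level at 36 h was 0.282 (0.196 to 0.398) of that at 0 h, and the 48 h library was 1.85 times (1.28 to 2.72) above the 36 h library. The library at 48 h stood above its neighbours at 36 and 60 h, whose intervals overlapped. Sox2 thus came down before 36 h, when Pou5f1 was still at 0.652 (0.564 to 0.751) of its 0 h level, and was at 0.394 (0.294 to 0.524) of the 0 h level at 96 h, or 0.258 (0.195 to 0.338) of the second mESC library.

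Sall4 lay between 64.1 CPM at 36 h and 152 CPM at 6 h, with 117 CPM at 96 h, a ratio to 0 h of 1.05 (0.876 to 1.26) by library totals, of 0.745 (0.621 to 0.895) relative to Actb, and of 1.38 (1.14 to 1.68) against the second mESC library. The 48 h library was 1.84 times (1.47 to 2.33) above the one at 36 h. Lin28a read 32.4 CPM at 0 h, 72.9 at 6 h, 46.3 at 12 h, 52.8 at 24 h, 69.6 at 36 h, 107 at 48 h, 113 at 60 h, 143 at 72 h, 123 at 84 h and 118 at 96 h. The 6 h library was already 2.25 times (1.69 to 3.02) above 0 h, and at 96 h the ratio was 3.64 (2.79 to 4.80). The second mESC library held less Lin28a still (13.9 CPM), which would raise that ratio to 8.46 (5.83 to 12.7).

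**Figure D2:**
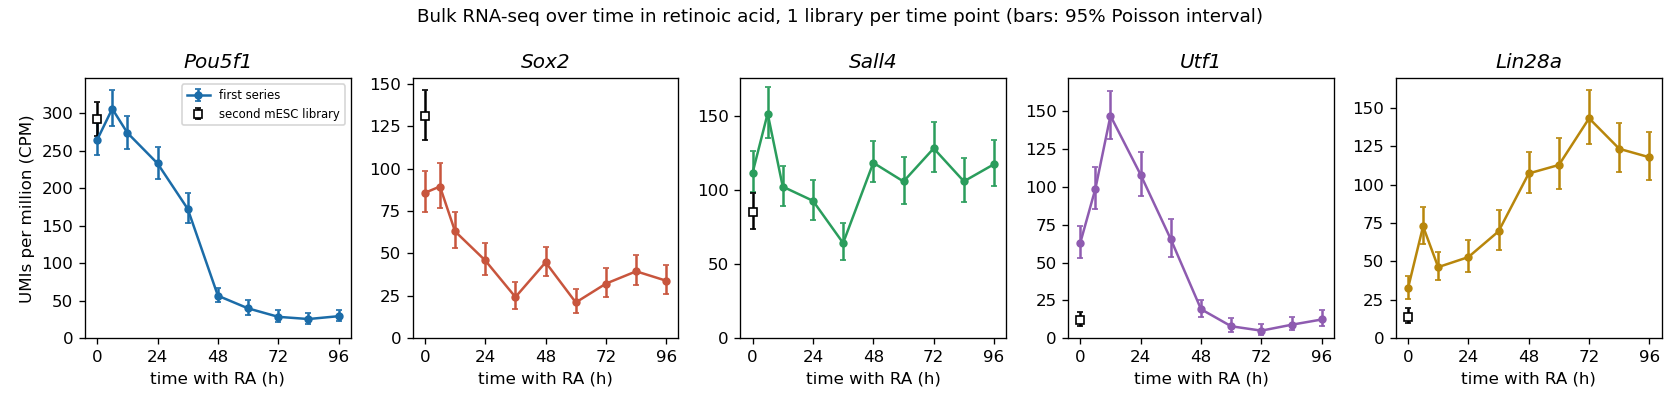
CPM of each member against hours in RA, with 1 library per time point (filled) and the second mESC library at 0 h (open square), and bars for the 95% Poisson interval. Pou5f1 and Utf1 drop most steeply between 36 and 48 h, Sall4 has no overall trend and Lin28a rises from 32.4 to a highest value of 143 CPM at 72 h.

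Sorting by surface CD24 before the lineages were complete asked how the members vary along the CD24 gradient. At 48 h, in PDGFRA- cells, Pou5f1 went down from the lowest to the highest CD24 quartile, at 109, 95.0, 74.3 and 41.7 CPM. The ratio of highest to lowest quartile was 0.382 (0.283 to 0.512). Utf1 followed the same order at 16.1, 15.0, 13.2 and 7.58 CPM, with a ratio of 0.472 (0.215 to 0.981). Lin28a ran the other way, at 95.6, 126, 130 and 207 CPM, a ratio of 2.17 (1.77 to 2.65), and Sall4 likewise at 80.9, 95.7, 104 and 138 CPM, a ratio of 1.70 (1.36 to 2.14). Sox2 had 18.7, 31.4, 32 and 28.4 CPM, and its interval, 0.926 to 2.53, included 1. The summed naive pluripotency regulators also came down along these gates, from 875 to 536 CPM, and the summed ectoderm markers went up from 885 to 1560 CPM.

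At 72 h the PDGFRA- terciles, from low to high CD24, had 30.3, 4.41 and 11.5 CPM of Pou5f1 and 19.4, 15.0 and 43 CPM of Sox2. The highest tercile had 2.21 times (1.36 to 3.70) the Sox2 of the lowest and 0.380 (0.195 to 0.705) of its Pou5f1. The PDGFRA+/CD24- cells of the same day, the XEN side, held 47.8 CPM of Pou5f1, 4.15 times (2.34 to 7.83) the highest CD24 tercile, and a single Sox2 UMI (0.735 CPM), which is 0.0171 (0.000425 to 0.0993) of that tercile. Sall4 was at 104, 128 and 97.5 CPM in the terciles and 143 CPM in PDGFRA+ cells, a ratio of 1.46 (1.16 to 1.84) to the highest tercile but of 1.11 (0.894 to 1.39) to the middle one. Lin28a was at 141, 172 and 163 CPM in the terciles and 190 CPM in PDGFRA+ cells, a ratio of 1.17 (0.972 to 1.41) to the highest tercile. Utf1 was at 10.1, 0.882 and 1.54 CPM in the terciles and 5.15 CPM in PDGFRA+ cells. The opposite placing of Pou5f1 and Sox2 that the sorted cells show at 96 h was thus present in these libraries at 72 h.

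**Figure D3:**
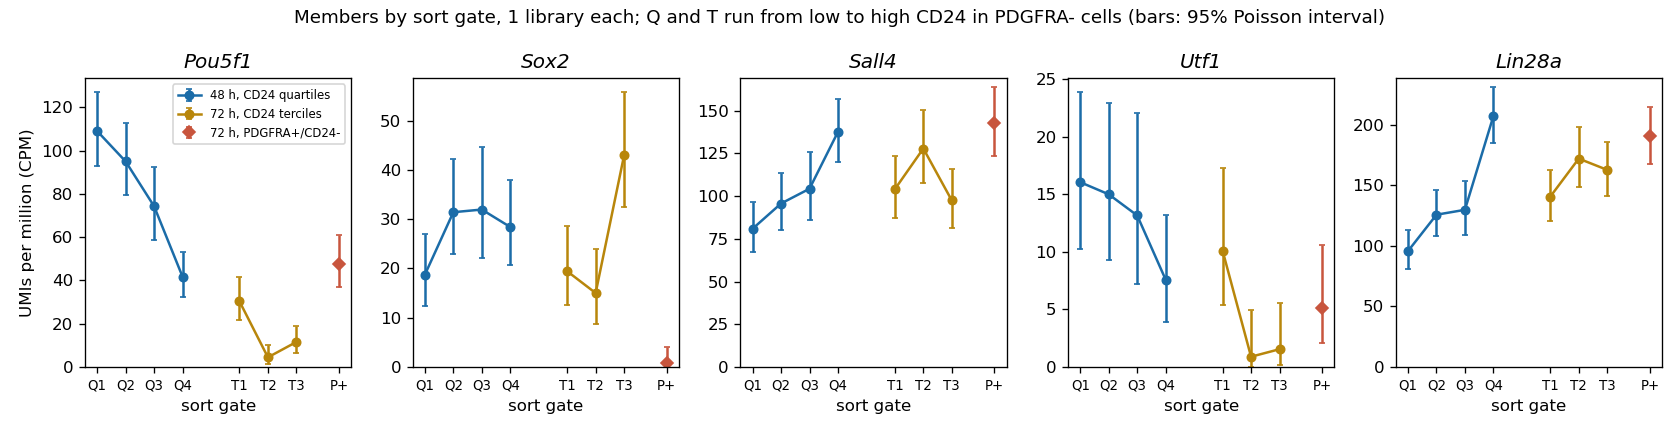
CPM of each member in cells sorted at 48 h (CD24 quartiles Q1 to Q4) and 72 h (CD24 terciles T1 to T3, and PDGFRA+/CD24-, P+), 1 library each, with 95% Poisson intervals. Pou5f1 comes down from 109 to 41.7 CPM across the quartiles while Lin28a goes up from 95.6 to 207 CPM, and Sox2 is at 0.735 CPM in the PDGFRA+ library.

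In the long-term cultures, 1 library each, all 5 members were low. The ectoderm-like culture had 5 UMIs of Pou5f1 (2.68 CPM), 2 of Sox2 (1.07 CPM), 7 of Sall4 (3.75 CPM), 1 of Utf1 (0.535 CPM) and 3 of Lin28a (1.61 CPM). The XEN-like culture had 18 UMIs of Pou5f1 (12.4 CPM), 2 of Sox2 (1.38 CPM), 11 of Sall4 (7.59 CPM), 4 of Utf1 (2.76 CPM) and 7 of Lin28a (4.83 CPM). Against the summed sorted libraries of its own lineage, the ectoderm-like culture had 0.0202 (0.00243 to 0.0742) of the Sox2, 0.0363 (0.0145 to 0.0755) of the Sall4 and 0.00999 (0.00205 to 0.0294) of the Lin28a. The XEN-like culture had 0.0463 (0.0230 to 0.0836) of the Sall4, 0.0288 (0.0115 to 0.0598) of the Lin28a and 0.278 (0.160 to 0.456) of the Pou5f1. The members with few UMIs in the sorted cells could not show a small ratio: in the ectoderm-like culture it was 1.28 (0.320 to 4.68) for Pou5f1 and 0.597 (0.0114 to 7.44) for Utf1, and in the XEN-like culture 0.604 (0.0613 to 3.17) for Sox2 and 0.769 (0.179 to 2.596) for Utf1. Between the cultures, only for Pou5f1 did the interval leave out 1, at 4.64 times (1.66 to 16) more in the XEN-like culture. The 11 ectoderm markers summed to 1653 CPM in the ectoderm-like culture, against 3270 and 2803 CPM in the sorted ectoderm-like libraries, with 12 UMIs of Prtg, 7 of Pax6 and none of Sox1 but 827 of Fabp5. Its XEN markers summed to 2235 CPM, above both sorted ectoderm-like libraries. The XEN markers of the XEN-like culture summed to 10098 CPM, between the 12050 and 6665 CPM of the sorted XEN-like libraries. Its ectoderm markers summed to 1552 CPM, with no UMI of Sox1, against 611 and 323 CPM in the sorted XEN-like libraries. Of the genes on the ectoderm list, the XEN-like culture held 1400 UMIs of Fabp5 and 610 of Cd24a.

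In SCRB-seq, 2448 of 3456 wells had more than 2000 UMIs, 137 to 335 a plate, with median depths from 3560 to 5069 UMIs. All 9 plates share the same 384 well names, no 2 wells had identical counts, and doublets were not called. Each time point was 1 plate, so cells are not replicates. The 96 h plate stood apart: 84.7% of its 137 cells held more XEN-marker than ectoderm-marker UMIs, against 14% of 235 cells at 72 h.

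Summed over the cells of a plate, Pou5f1 was at 1.76 UMIs per 10000 (95% Poisson interval 1.57 to 1.96) at 0 h, 3.26 (2.98 to 3.56) at 24 h, 1.78 at 36 h, 0.550 at 48 h, 0.0988 at 60 h and 0.0306 at 72 h. At 96 h there was no Pou5f1 UMI among 726759, which allows up to 0.0413 per 10000. After thinning every cell to 2000 UMIs, the share of cells with a Pou5f1 UMI was 34% (28.5 to 39.9) at 0 h, 49% at 24 h, 10.5% at 48 h, 0.426% at 72 h and 0 of 137 cells at 96 h, which allows a share of up to 2.19%. Without thinning, the shares at 0, 24, 48 and 72 h were 56.4%, 68.6%, 20.9% and 1.70%. The bulk population libraries did not come down as far: at 96 h the bulk library held 57 Pou5f1 UMIs among 1951167, and the SCRB-seq level was 0.249 of the bulk level at 60 h and 0.108 at 72 h, after ratios from 0.948 to 1.40 between 6 and 48 h. At 0 h the ratio was 0.664. From 0 to 24 h Pou5f1 rose in SCRB-seq, whereas the bulk level at 24 h was 0.881 of that at 0 h. The SMART-seq2 median went from 246 RPKM at 0 h to 167 RPKM at 24 h. The reasons for these differences between assays were not tested.

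Utf1 went from 0.143 per 10000 at 0 h to a highest value of 1.64 at 12 h, before the highest value of Pou5f1 at 24 h, and was at 0.131 at 48 h with no UMI at 96 h. Its thinned share was 2.48% at 0 h, 27.4% at 12 h and 2.89% at 48 h. Lin28a went from 0.207 (0.147 to 0.283) per 10000 at 0 h to 1.56 (1.38 to 1.76) at 60 h and 1.33 at 96 h, with a thinned share of 5.32% (3.01 to 8.62) at 0 h and 20.4% (14 to 28.2) at 96 h. Sall4 lay between 0.977 and 2.00 per 10000 at all 9 times, and its thinned shares at 0 h and 96 h, 16% and 15.3%, had overlapping intervals.

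Sox2 came down from 7.00 (6.62 to 7.38) per 10000 at 0 h to 3.35 at 6 h, 1.86 at 24 h and 1.32 (1.07 to 1.61) at 96 h. Its thinned share went from 69.5% to 23.4%, or 11.4% at 96 h where only wells above 4000 UMIs were kept. The 23.4%, 32 of 137 cells, is from 1 random draw. A separate draw at 96 h left a Sox2 UMI in 14 of 116 cells with more XEN-marker UMIs. It left 1 in 6 of 18 cells with more ectoderm-marker UMIs. It read higher in SCRB-seq than in the bulk library of the same time at all 9 times, by ratios from 3.75 to 8.16, although both assays count 3′ ends with the same chemistry. For Sall4 and Lin28a the same ratio ran from 0.639 to 1.74. Sox2 levels of the 2 assays should therefore not be set side by side, and the bulk library at 6 h, with 89.5 CPM, lay between mESC library 1 (85.7 CPM) and mESC library 2 (131 CPM).

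**Figure D4:**
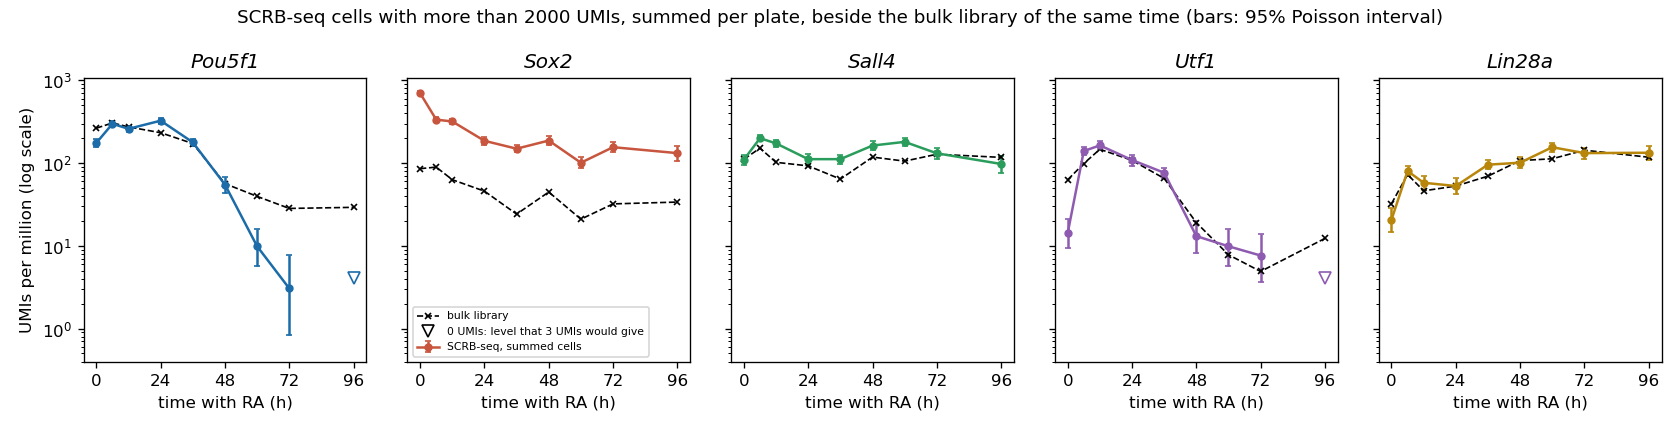
Level on the CPM scale, on a log axis, against hours in RA, for SCRB-seq cells summed per plate (points, 95% Poisson bars) and the bulk library of the same time (crosses). An open triangle marks a plate with 0 UMIs at the level 3 UMIs would give. The 2 assays lie close together for Sall4 and Lin28a (ratios 0.639 to 1.74), differ for Sox2 by 3.75 to 8.16 times, and part for Pou5f1 after 48 h.

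At 96 h, cells were split by whether they held more XEN-marker UMIs (116 cells) or more ectoderm-marker UMIs (18 cells), with 3 cells equal and 14 within 2 UMIs of the boundary. These are ranges of a score rather than types. Cells on the XEN side held a median of 50 XEN-marker and 6 ectoderm-marker UMIs, and those on the ectoderm side 11 and 19. Sox2 was at 0.939 (0.715 to 1.21) per 10000 in the former and 3.67 (2.51 to 5.18) in the latter, a ratio of 0.256 (0.164 to 0.406), and its thinned shares were 12.1% (6.76 to 19.4) and 33.3% (13.3 to 59) at median depths of 3996 and 4826 UMIs. The unthinned shares were 31.9% and 72.2%. What part of the UMIs on the XEN side was free RNA was not tested. Sall4 had a ratio of 0.565 (0.311 to 1.097) and Lin28a of 0.569 (0.341 to 0.996), while Pou5f1 and Utf1 had no UMI on either side. A count of 0 allows up to 0.0477 per 10000 on the XEN side and 0.344 on the ectoderm side. No order of Pou5f1 between the sides can therefore be read at 96 h. The sorted XEN-like bulk libraries held 60.4 and 16.4 CPM of Pou5f1, which the cells on the XEN side did not show, and the reason was not tested. Earlier, at 48 h, the 18 cells on the XEN side held a median of only 4 XEN-marker and 2 ectoderm-marker UMIs, and 59 of 277 cells lay within 2 UMIs of the boundary. These 18 cells held 15 Pou5f1 UMIs, 2.12 (1.18 to 3.49) per 10000, a level whose interval includes the 1.76 at 0 h, against 0.461 in the 245 cells on the ectoderm side, a ratio of 4.59 (2.43 to 8.10), and 3 Sox2 UMIs, a ratio of 0.220 (0.0450 to 0.648). At 60 h, with 36 and 225 cells, both intervals included 1: 2.56 (0.602 to 8.44) for Pou5f1 and 0.672 (0.359 to 1.16) for Sox2. Where marker counts had to differ by at least 3 UMIs, the Sox2 ratio at 60 h was 0.242 (0.0650 to 0.632), which left out 1. In wells with more than 4000 UMIs it was 0.592 (0.277 to 1.12). At 72 h Pou5f1 had 3 UMIs on the XEN side and 1 on the other, and the Sox2 ratio was 0.480 (0.244 to 0.858). The mESC bulk libraries themselves held 281 and 197 CPM of XEN-list genes beside 213 and 192 CPM of ectoderm-list genes, and the part of undifferentiated cells in the 48 h class was not tested.

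SMART-seq2 gives RPKM, reads scaled to transcript length and library size, for 82, 86, 89 and 82 cells at 0, 12, 24 and 48 h. Depth is unknown in these values, and an entry of 0 may be a failed estimate. All 82 cells at 0 h were above 1 RPKM for Pou5f1, Sox2 and Sall4. Pou5f1 had a median of 246 RPKM (quartiles 188 and 299) at 0 h, 185 at 12 h, 167 at 24 h and 17.4 (quartiles 0 and 51.7) at 48 h, when 49 of 82 cells (59.8%, exact interval 48.3 to 70.4) were above 1 RPKM. Sox2 had medians of 31.5, 31.1, 17.8 and 4.35 RPKM, and at 48 h 42 of 82 cells (51.2%, 39.9 to 62.4) were above 1 RPKM. The third quartile of Pou5f1 at 48 h was below its first quartile at 24 h, 134 RPKM, whereas that of Sox2 at 48 h, 25.4 RPKM, was above its median at 24 h.

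Utf1 had medians of 50.8, 283, 245 and 18.8 RPKM at the 4 times, with 81.7% of cells above 1 RPKM at 0 h, all 86 at 12 h and 61% at 48 h. Sall4 was above 1 RPKM in every cell of all 4 times, with medians of 111, 153, 102 and 177 RPKM. Lin28a had medians of 25.5, 39.3, 36.0 and 74.9 RPKM, in 84.1% of cells at 0 h and 95.1% at 48 h. The rise of Utf1 by 12 h and of Lin28a by 48 h seen in UMIs was therefore seen in full-length reads too.

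Pou5f1 and Sox2 were not above 1 RPKM in the same cells throughout at 48 h. What part of this split came from missed transcripts was not tested. Both genes were above 1 RPKM in all 82 cells at 0 h, in 89.5% at 12 h and in 84.3% at 24 h. At 48 h, 27 of 82 cells (32.9%, exact interval 22.9 to 44.2) had both, 22 had Pou5f1 alone, 15 had Sox2 alone and 18 had neither. Of the 18 cells with neither, 15 were above 1 RPKM for both Sall4 and Lin28a. All 5 members were above 1 RPKM in 72.0%, 86%, 82% and 24.4% of cells at the 4 times. Across the 82 cells at 48 h, Spearman's rho between Pou5f1 and Sox2 was 0.03, and that of Lin28a and of Sox2 with the mean level of the ectoderm markers was 0.39 and 0.35. With the XEN markers Sox2 had a rho of 0.23 and Pou5f1 of -0.14. These are descriptions of 1 sample, whose cells share its library preparation.

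**Figure D5:**
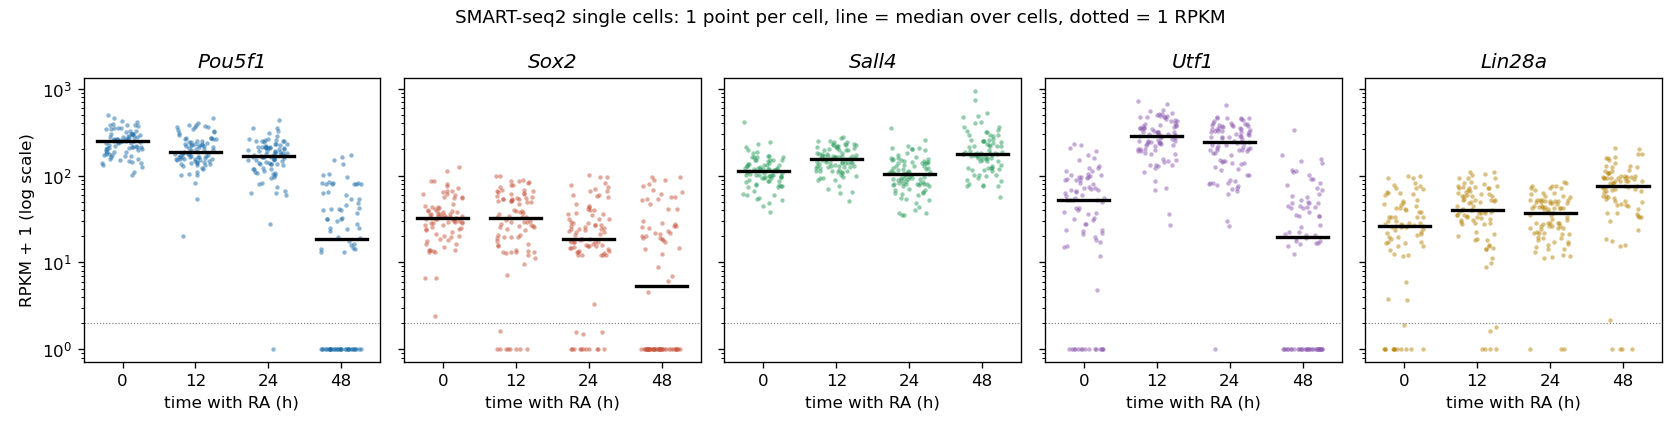
RPKM + 1 on a log axis for each SMART-seq2 cell at 0, 12, 24 and 48 h, with the median as a line and 1 RPKM dotted. At 48 h Pou5f1, Sox2 and Utf1 each form a band of cells listed at 0 beside cells well above 1 RPKM, while all cells stay above the dotted line for Sall4.

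Across the 25 bulk libraries, Pou5f1 and Utf1 had a Pearson r of log2(CPM + 1) of 0.91, and Sall4 and Lin28a of 0.86. Sall4 and Lin28a both had their lowest values in the 2 cultures, and r without the cultures was not computed. Outside the cultures, Lin28a was lowest in mESC (32.4 and 13.9 CPM), where Sall4 had 112 and 84.9 CPM. Sox2 had r between 0.21 and 0.47 with the other 4. Time points of 1 differentiation are not independent, so these values are descriptions. Among the 6404 genes other than the member with a mean of at least 10 CPM, the nearest to Pou5f1 were Apoc1 (0.94), Laptm5 (0.93) and Zfp42 (0.93), to Utf1 Mkrn1 (0.94), Rps4y2 (0.93) and Pou5f1, to Sox2 Sap30 (0.92), Rnaseh2a (0.90) and Zmym1 (0.89), to Sall4 Igf2bp1 (0.92), Nme6 (0.92) and Trim71 (0.91), and to Lin28a Nr6a1 (0.91), Rps27l (0.91) and Igf2bp1 (0.89).

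Genes that work with Oct4 and Sox2 were set beside them. Of 12 naive pluripotency regulators, 10 fell in ectoderm-like cells, where 9.27% of all genes did (median log2 fold change -6.11 beside 0.05 for all genes) and 11 in XEN-like cells, where 10.5% did (-4.23 beside -0.06). Nr0b1, an orphan nuclear receptor, fell by 7.93 on the log2 scale in ectoderm-like cells. Prdm14, a repressor of differentiation genes, had 23 and 50 UMIs in mESC and none in the 4 sorted libraries, and Nr5a2, a nuclear receptor that binds the Pou5f1 promoter, had 21 and 18 and none. Nanog (-0.49, edgeR adjusted p = 0.41) and Gbx2 (-0.90, edgeR adjusted p = 0.453) were the regulators not past the threshold in ectoderm-like cells. Gbx2 differed between the sorted ectoderm-like libraries, with 24 UMIs and 1 UMI. As with Pou5f1, 5 of the 12 were higher in XEN-like than in ectoderm-like cells and none lower, where 6.98% and 5.71% of all genes were. The Krüppel-like factors Klf4 (3.12) and Klf5 (2.72) led these 5.

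Of the 4 listed targets of joint Oct4-Sox2 elements, 3 were tested. Fgf4, the growth factor that signals through ERK in these cells, fell by 6.55 on the log2 scale in ectoderm-like cells and by 5.01 in XEN-like cells. Fbxo15, an F-box protein gene, fell by 4.21 in ectoderm-like cells but had -0.32 in XEN-like cells (edgeR adjusted p = 0.651), and was higher in XEN-like than in ectoderm-like cells by 3.89 (edgeR adjusted p = 0.00193). Of 9 post-implantation epiblast genes, 4 had counts to be tested: Dnmt3a, a DNA methyltransferase, rose in ectoderm-like cells by 2.13, and Zic2, a zinc-finger factor, fell in XEN-like cells by 2.55.

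The relatives of the members divided by lineage. Of 13 listed, 10 were tested, of which 6 rose and none fell in ectoderm-like cells, against 2 and 1 in XEN-like cells (median log2 fold change 4.02 and -0.06). Of all genes, 9.82% were called higher and 9.27% lower in ectoderm-like cells, and 12.3% and 10.5% in XEN-like cells. The counts in XEN-like cells are thus near those of all genes. Between the lineages, 2 were higher and 7 lower in XEN-like cells, where 6.98% and 5.71% of all genes were. Sox1 and Sox3, the SoxB1 partners of Sox2 in neural cells, rose in ectoderm-like cells by 6.14 and 4.62 on the log2 scale, with 47 and 35 UMIs of Sox1 in the sorted ectoderm-like libraries and 1 and 0 in the XEN-like ones. Pou3f2, a POU factor of neural progenitors, rose by 5.20, with 13 and 28 UMIs against none in XEN-like cells. Sox17 and Sox7, endoderm factors, rose in XEN-like cells by 6.96 and 6.91. Sox17 also rose in ectoderm-like cells, by 4.49, with 21 and 62 UMIs, the larger number in the library with more XEN markers, and the part of XEN-like cells in this was not tested. Of the Sall4 relatives, Sall2 rose in ectoderm-like cells by 3.55, Sall3 fell in XEN-like cells by 4.32 and Sall1 was lower in XEN-like than in ectoderm-like cells by a log2 value of -1.52 (edgeR adjusted p = 0.0418). Pou2f1, the ubiquitous Oct1, passed in no comparison, with log2 values from -1.08 to 0.70.

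The 2 Lin28 genes parted. Lin28b, the paralog of Lin28a, had 0 and 2 UMIs in mESC, 51 and 26 in sorted ectoderm-like cells and 2 and 1 in sorted XEN-like cells. It rose in ectoderm-like cells by 5.19 ± 0.76 (edgeR adjusted p = 0.000775) and was lower in XEN-like than in ectoderm-like cells by a log2 value of -4.35 ± 0.73 (edgeR adjusted p = 0.00347), where Lin28a did not pass. Of 8 let-7 target genes, Lin28b included, 2 rose in ectoderm-like cells, Lin28b and Arid3a (1.71), and 1 in XEN-like cells, Mycn (1.41), where 9.82% and 12.3% of all genes were called higher, so that the count in XEN-like cells is near that of all genes. Hmga2, a chromatin protein under let-7 control, was lower in XEN-like than in ectoderm-like cells (-2.17, edgeR adjusted p = 0.0234). Of 8 genes of let-7 processing, Zcchc11, the uridylyltransferase that Lin28a recruits, rose in ectoderm-like cells by 1.49 (median of the 8 genes 0.25) and was lower in XEN-like than in ectoderm-like cells (-1.94), whereas Dgcr8, the partner of Drosha, was higher (2.09). The let-7 microRNAs themselves were not measured.

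Of the 12 NuRD genes, the complex that Sall4 recruits, 3 rose in ectoderm-like cells (Mbd2 by 2.49, Mta1 by 1.38 and Rbbp7 by 1.20) and 2 in XEN-like cells (Mbd2 by 3.04 and Rbbp7 by 2.24), where Hdac1 fell by 0.98. Of all genes, 9.82% and 12.3% were called higher in these comparisons, and the median of the 12 was 0.36 and -0.26, beside 0.05 and -0.06 for all genes. Mbd2 rested on few reads, 3 and 1 UMIs in mESC and 6 to 17 in sorted cells. The other members of the complex, among them Chd4, Mta2 and Mbd3, did not pass in any comparison with mESC, as Sall4 did not.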

How the data were processed

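Bulk libraries and SCRB-seq plates were deposited as UMI counts per gene, which per the labels and the study's methods the authors made by aligning reads with BWA 0.7.4 to mouse RefSeq transcripts. The strand setting of the counting is not given in the sources used here. SMART-seq2 values were deposited as RPKM, made by the authors with TopHat and Cuffnorm. Of 23481 genes in the bulk table, 23475 were used, after 2 genes with damaged rows and the rows of 2 duplicated names were dropped. The 2 mESC, 2 sorted ectoderm-like and 2 sorted XEN-like libraries were fitted together in edgeR 4.0.16 (R 4.3.3; TMM scaling, quasi-likelihood test, Benjamini-Hochberg adjustment over 8945 genes that passed the filter on low counts, threshold 0.05). An exact permutation test of 2 against 2 libraries cannot go below p = 0.333 and was not used. Single libraries were compared by ratios of CPM with exact 95% intervals, which cover counting error only, as do the Poisson intervals and the limit set by a count of 0, taken as 3 counts. Only SCRB-seq wells above 2000 UMIs entered. Members and gene lists (naive regulators, Oct4-Sox2 targets, epiblast genes, relatives, NuRD, let-7 processing and targets, and markers of XEN, ectoderm, mesoderm and trophectoderm) were chosen with earlier results of these data known. Named genes were up to 2 with the largest rise and up to 2 with the largest fall past the threshold per list and comparison, every relative with at least 10 counts in 1 sorted or mESC library, the 3 genes most like each member by Pearson's r, and markers; other names were chosen after their values were seen. Scripts were tested on simulated data. DESeq2 1.42.0 was an alternative.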

Additional observations from a re-analysis of the deposited data

Results flagged for a closer look

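Pou5f1 and Sox2 changed differently in the 2 lineages by a test of the difference itself. The log2 change of Pou5f1 against mESC was higher in sorted XEN-like than in sorted ectoderm-like cells by 4.29, and that of Sox2 was lower, at -4.36 (edgeR quasi-likelihood test with Benjamini-Hochberg adjustment, adjusted p = 0.00254 and 0.00086). Among SCRB-seq cells at 96 h, Pou5f1 had no UMI on either marker side, so its order was not seen there. Both sorted XEN-like bulk libraries lay on the same side of both sorted ectoderm-like ones for each gene. The 2 genes were picked by the test on these same libraries, so this order adds no separate support.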

How the results depend on the processing

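The calls of Pou5f1 and Lin28a against mESC, and of Pou5f1 and Sox2 between the lineages, kept their direction and stayed past the threshold under all 10 alternatives. Genes called over the whole table numbered 1707 in ectoderm-like cells against mESC (1094 by DESeq2, 862 to 1748 with 1 library left out), 2042 in XEN-like cells against mESC (1265 to 1953), and 1135 between the lineages (707 by DESeq2, 262 to 1370), the lowest without ectoderm-like library 2, XEN-like library 1 and ectoderm-like library 1, in that order. A group left with 1 library was assumed to vary like the others. With no filter on low counts they were 2545, 2709 and 1667. The 2 replicate numbers are shared by the groups, but the labels do not tie them to a shared culture, and deviations correlated at 0.103, 0.0215 and 0.326 across 8945 genes; with the replicate block the counts were 2159, 2512 and 1509, and 4, 4 and 2 members were called, as without it. Sall4 turned sign in ectoderm-like cells with library totals (0.0509) and without ectoderm-like library 2 (0.0257; from -0.64 to 0.0257 with 1 library left out), and Utf1 over the time course with the second mESC library as 0 h (1.05). At 96 h, the intervals of Sox2 and Lin28a between the marker classes of SCRB-seq cells left out 1. Where marker counts had to differ by at least 3 UMIs, or wells to hold more than 4000 UMIs, that of Lin28a included 1 and that of Sox2 did not. The share of all genes whose interval left out 1 was not counted, so this cannot be called particular to the members. In wells with more than 4000 UMIs the thinned share of Sox2 at 96 h was 11.4%. With another random seed of the thinning, 1 of the members' thinned shares at 0 h and 96 h left the interval of the first draw. The causes were not tested. Counts of 0 to 7 UMIs in sorted cells and cultures limit the folds of Pou5f1, Utf1 and Sox2.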

Other observations

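The 2 mESC libraries, at nearly equal depth, differed in 4 of the 5 members beyond counting error. The share of all genes that did so was not counted, so this cannot be called particular to the members. Library 2 held 0.187 (95% interval 0.119 to 0.283) of the Utf1 of library 1, 0.430 (0.275 to 0.660) of the Lin28a, 0.761 (0.628 to 0.921) of the Sall4 and 1.53 times (1.27 to 1.84) the Sox2, while Pou5f1 had a ratio of 1.104 (0.987 to 1.23). The SCRB-seq plate at 0 h also held little Utf1, at 0.227 of the level in mESC library 1. The 2 sorted XEN-like libraries differed in Pou5f1 by a ratio of 0.271 (0.156 to 0.448) and in Sall4 by 0.576 (0.466 to 0.708).

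At 72 h, SCRB-seq cells with more XEN-marker UMIs held 0.369 (0.156 to 0.743) of the Sall4 and 1.76 times (1.16 to 2.61) the Lin28a of cells with more ectoderm-marker UMIs. The Sall4 value rested on 8 UMIs in the former. In wells with more than 4000 UMIs its interval included 1, at 0.527 (0.223 to 1.07). That of Lin28a did not, at 1.93 (1.07 to 3.28). For Lin28a the order at 72 h was the opposite of that at 96 h, when the ratio was 0.569 (0.341 to 0.996). Each time is 1 plate, and the difference between the times was not tested.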
